A study of Mus musculus with 6 samples.

Results

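The Gnas domain is an imprinted stretch of mouse chromosome 2, taken here as a window of 75 kb in build mm9. Its members were all CpG cytosines that lay in this window and had a methylation level in at least 1 of 6 libraries, 198 of 750119 cytosines in the series. The first of them was at 174109231 and the last at 174170876. The domain was chosen by measured levels: a cluster of 7 cytosines in it read lower than control in the Tet1 and Tet2 knockdown. The levels of that cluster in that contrast are therefore a description and support nothing. Of the 198 cytosines, 101 had a level in all 6 libraries. The libraries listed 159 (control), 176 (Tet1 and Tet2), 112 (Dnmt1), 169 (Dnmt3a), 158 (Dnmt3b) and 153 (Dnmt3a and Dnmt3b) of them.

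The libraries came from E14, an established line of mouse embryonic stem cells, and each group was 1 library. All cells carried a short hairpin RNA (shRNA), either a control or 1 directed at Tet1 and Tet2, Dnmt1, Dnmt3a, Dnmt3b, or Dnmt3a and Dnmt3b. The Dnmt1 library is titled Dnmt1a but labelled Dnmt1 by its treatment. The labels give neither the time after knockdown nor the remaining level of any target. Methylation was read by reduced representation bisulfite sequencing (RRBS), in which MspI cuts DNA at CCGG and bisulfite conversion leaves 5-methylcytosine and 5-hydroxymethylcytosine readable as cytosine. A level is the percentage of methylated calls at 1 cytosine on 1 strand. The number of reads behind a level is unknown, and no group had a replicate. Each difference is thus between 2 libraries, without replicate error and without a p-value, and an SD given with a mean describes the spread along the DNA only.

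Gnas encodes the alpha subunit of the stimulatory G protein, which couples hormone receptors to adenylyl cyclase. The same locus has alternative promoters that splice onto shared exons. The most upstream one gives Nesp, a neuroendocrine secretory protein made from the maternal allele, and the Gnasxl promoter gives a large variant of the G protein subunit from the paternal allele. Nespas is an antisense RNA that runs through Nesp from the paternal allele, and exon 1A starts a paternal noncoding transcript just upstream of the main Gnas promoter. A differentially methylated region (DMR) of an imprinted locus carries methylation on a single parental allele. The Nespas-Gnasxl DMR and the exon 1A DMR are known to be methylated on the maternal allele in the oocyte, while the Nesp promoter gains methylation on the paternal allele later in development. DNMT1 copies methylation at replication, DNMT3A and DNMT3B methylate DNA de novo, and TET1 and TET2 oxidise 5-methylcytosine.

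The sequences below show what RRBS read at the stretches that the results turn on. The first 3 were put together from the 5-base contexts in the deposited files, written on the plus strand of mm9. Capitals mark the CpGs whose cytosine was listed, and n marks a base that no context gives. The first is the cluster that led to the choice of the domain, chr2:174125972-174126023. The second, called the dense neighbour below, is a densely read minus-strand stretch of the same DMR, chr2:174125110-174125157. It is not adjacent to the first, since other read stretches lie between them. The third is the stretch of the exon 1A DMR most methylated in control, chr2:174154237-174154284.
chosen cluster: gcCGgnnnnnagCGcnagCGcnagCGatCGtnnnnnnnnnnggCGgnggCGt
dense neighbour: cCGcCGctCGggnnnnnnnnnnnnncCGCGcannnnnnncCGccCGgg
exon 1A end: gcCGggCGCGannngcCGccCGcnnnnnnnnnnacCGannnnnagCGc

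RefSeq promoter windows of build GRCm38.p6 were matched to the listed cytosines by context and spacing, since no mm9 annotation was used. Each window holds 250 bases before and 50 after a transcript start. Of 32851 windows, only 2 could be laid on the domain with at least 4 contexts and no mismatch among the listed cytosines inside, and both belonged to Gnas. The window of the most upstream Gnas start (base 174284320 of GRCm38.p6) held 4 listed cytosines, mm9 174109725 to 174109772, which lay 96 to 49 bp before the start. The window of the most downstream start in the table (base 174330006) held 5, mm9 174155535 to 174155552, which lay 28 to 45 bp after the start. The table has another pair of Gnas starts between these (bases 174327749 and 174327768), whose windows hold 27 and 28 CpGs but 0 CCGG sites, against 52.8% of all windows with at least 1, and no listed cytosine could be placed in them. Nespas had no window in the table. The 250 bases before the most upstream start, chr2:174284070-174284319 of GRCm38.p6 on the plus strand, are shown because the 4 CpGs read in them, in capitals, had a level of 0% in control.
upstream of the first Gnas start: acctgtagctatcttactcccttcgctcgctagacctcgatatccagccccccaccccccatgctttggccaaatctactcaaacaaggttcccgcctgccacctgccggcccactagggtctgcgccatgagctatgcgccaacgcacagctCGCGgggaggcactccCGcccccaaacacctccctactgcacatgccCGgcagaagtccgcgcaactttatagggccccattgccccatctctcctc

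Along the domain, control cells had 4 kinds of methylation, as the plot of levels along the domain shows. The part around the most upstream Gnas start was near 0% and the Nespas-Gnasxl DMR near the middle of the scale. The exon 1A DMR was low but above 0%, and the cytosines just downstream of the main Gnas start were at 0%. Control listed none of the cytosines placed at that start itself. The few cytosines far from these starts were highly methylated. Over the cytosines listed in all 6 libraries, control averaged 52.9% ± 9.6 (SD over 55 cytosines) in the Nespas-Gnasxl DMR, 12.6% ± 9.0 (21 cytosines) in the exon 1A DMR and 4.45% ± 16.6 (25 cytosines) in the rest, where a single cytosine at 83.8% sets most of the mean and 14 cytosines read 0%.

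**Figure D1:**
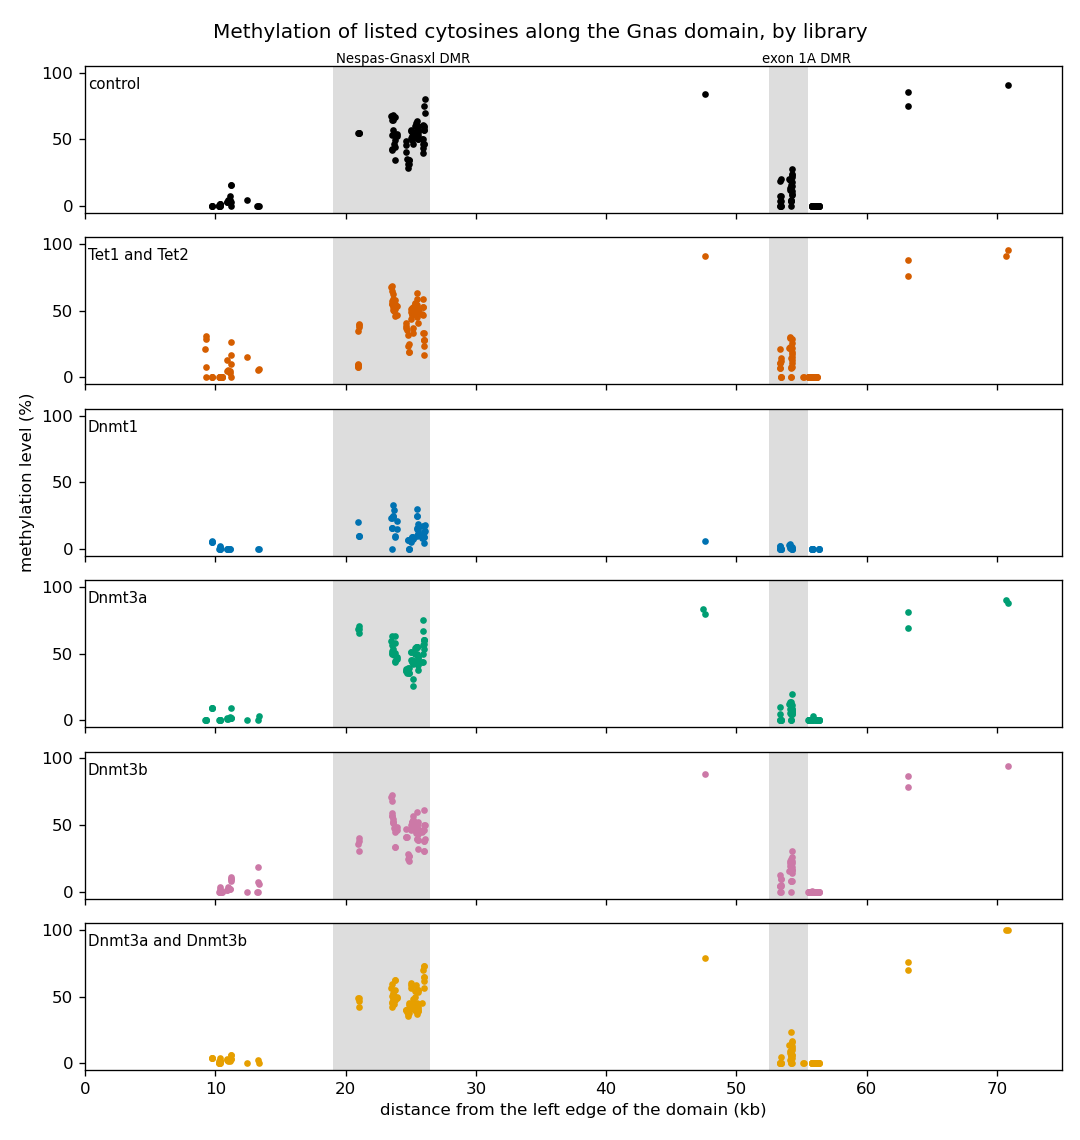
Methylation level (%) of every listed cytosine against distance from the left edge of the domain (kb), 1 panel per library, with the DMRs shaded. In the 5 libraries other than Dnmt1 the Nespas-Gnasxl DMR sits mostly near the middle of the scale and the exon 1A DMR at or below 30.9%, while in Dnmt1 no cytosine of either exceeds 32.8%.

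The region around the most upstream Gnas start, which drives Nesp, was close to unmethylated. The 4 cytosines just before the start averaged 0% in control and in Tet1 and Tet2. Dnmt1 read 5.45%, Dnmt3a 9.10% and the double knockdown 4.30%, and Dnmt3b did not list them. Farther downstream, 7 minus-strand cytosines (174110304 to 174110353) averaged at most 1.64% in any library, the double knockdown. Their highest single level was 4%, at 174110350 for Dnmt3b. Beyond these, methylation was low but seen in several libraries: at 174110925 to 174110947 control read 3.43% and Tet1 and Tet2 8.03%, the others 0% (Dnmt1) to 2.43% (Dnmt3a and Dnmt3b).

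At 174111185 to 174111225 control read 8.57%, Tet1 and Tet2 13.4%, Dnmt3b 9.82%, the double knockdown 4.85% and Dnmt3a 3.75%. At the single cytosine 174112422 Tet1 and Tet2 read 15%, control 4.20% and the other 3 libraries that listed it 0%. The 5 cytosines at 174109231 to 174109280, upstream of the start, were listed for Tet1 and Tet2, with a mean of 17.7%, and for Dnmt3a, with 0%. Tet1 and Tet2 was thus the highest library at these 4 stretches, but 3 of them lack a level in at least 1 library, and at 174111093 to 174111140 control (5.85%) was above Tet1 and Tet2 (4.15%). At the pair 174113296 to 174113317, listed in all 6 libraries, Dnmt3b was the highest at 12.5%, with Tet1 and Tet2 at 6.05%, Dnmt3a at 1.7%, the double knockdown at 1.3% and control and Dnmt1 at 0%. No cytosine outside the DMRs differed from control by 20 points in any knockdown other than Dnmt1.

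The Nespas-Gnasxl DMR, taken as a stretch of 7.5 kb, held 83 listed cytosines between 174120942 and 174126069, 55 of them in all 6 libraries. It carries the promoters of the antisense RNA and of the large G protein variant. All 75 cytosines that control listed there lay between 20% and 80%. The levels carry no allele label, so the alleles could not be told apart. Means over the 55 cytosines were 52.9% in control, 50.4% ± 8.7 (SD) for Dnmt3a, 49.1% ± 9.1 in the double knockdown, 46.1% ± 11.1 for Dnmt3b, 45.5% ± 12.7 for Tet1 and Tet2 and 13.5% ± 7.8 for Dnmt1. The 5 libraries other than Dnmt1 lay within 7.4 points of each other, and Dnmt1 lay below all of them.

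Neighbouring cytosines are not separate measurements. MspI opens a fragment at each CCGG, and the cytosines read inward from 1 such end on 1 strand come from the same reads. In control the SD among cytosines of 1 end was 6.44 points and that between the ends' means 8.17 points, and in Dnmt3a these were 3.16 and 7.98 points. The DMR had 21 such ends, 18 of them listed in the 5 libraries other than Dnmt1 and 14 in all 6. Control ends ran from 31.9% to 66.3% with a median of 54.8%, and 16 of 18 lay between 40% and 60%. The same count was 14 for Dnmt3a, 15 in the double knockdown, 13 for Dnmt3b and 12 for Tet1 and Tet2. In Dnmt1 it was 0 of 14, with ends from 2.68% to 27.2%, so that the highest Dnmt1 end lay below the lowest control end.

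**Figure D2:**
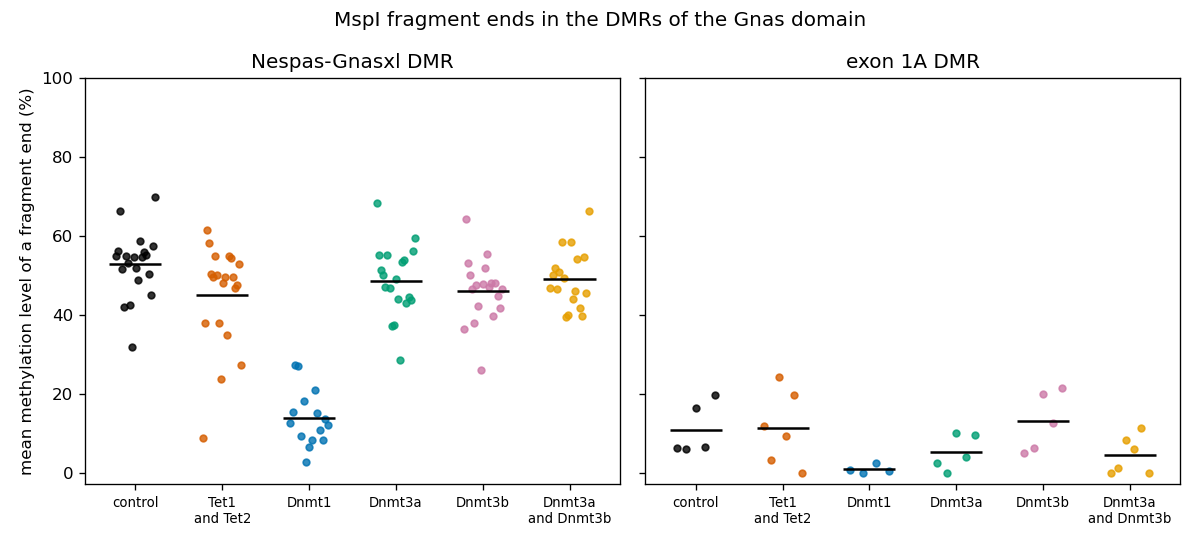
Mean methylation level (%) of each MspI fragment end in the Nespas-Gnasxl DMR (left) and the exon 1A DMR (right) by library; points are ends, of which each library lists a different number, and lines are the mean over the points shown. Control ends of the left panel that are shared with the other 4 libraries outside Dnmt1 run from 31.9% to 66.3%, and those of Dnmt1 from 2.68% to 27.2%.

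Not all of the DMR stood at the same level. The highest shared control end, 174123630 to 174123668 on the minus strand, read 66.3% in control, 58.2% for Tet1 and Tet2, 53.2% for Dnmt3b, 51.8% in the double knockdown and 51.4% for Dnmt3a. The lowest, 174124809 to 174124857 on the minus strand, read 31.9% in control, 40% in the double knockdown, 37.5% for Dnmt3a, 26.0% for Dnmt3b and 23.7% for Tet1 and Tet2. This end was below 41% in every library, and its Dnmt1 level of 2.68% was the lowest of all ends. Its neighbour 174124643 to 174124687 on the plus strand was also below the middle, at 42.5% in control and between 37.1% and 42.3% in the other 4 libraries that listed it.

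The dense neighbour printed above was read evenly. Its 7 cytosines averaged 51.8% in control, 51.9% for Dnmt3b, 49.6% for Tet1 and Tet2, 44.1% in the double knockdown, 44.0% for Dnmt3a and 8.34% for Dnmt1. The libraries fell into a pair near 44%, which are those with the Dnmt3a shRNA, a trio near 51% and Dnmt1. At the left edge, 174120990 to 174121033 varied widely among the libraries other than Dnmt1: Dnmt3a read 68.4%, control 55%, the double knockdown 46.8%, Tet1 and Tet2 38.0% and Dnmt3b 36.3%. Here Dnmt3a was the highest library, and its 2 strands could not be compared, since the minus-strand end at 174120942 to 174120984 was listed for Tet1 and Tet2 alone, at 8.72%.

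CpGs listed on both strands gave a check within a library. The DMR had 4 such CpGs, which gave 20 pairs of levels over the libraries. The strands differed by a median of 3.65 points and at most by 13.8 points, at 174125552 in the double knockdown (53.4% plus, 39.6% minus). At 174123667 control read 56.7% on the plus and 66.1% on the minus strand, and Dnmt1 25.0% and 24.6%. At the last CpG of the chosen cluster control read 59.3% and 60%, Dnmt3b 61.5% and 50%, and Dnmt1 9.10% and 4.5%. Tet1 and Tet2 had no level on the minus strand there, so its level at this CpG has no opposite-strand reading.

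Knockdown of Dnmt1 addressed the part of the maintenance enzyme. It was lower than control at all 55 cytosines of the Nespas-Gnasxl DMR, by a mean of -39.4 ± 6.6 points (SD over 14 ends), which left 25.5% of the control level. Of 58 cytosines compared with control there, 57 read at least 20 points below it, the size taken as a call, and 0 that far above. Over all autosomal cytosines 31.1% were that far below and 0.0115% above, and over those of intermediate level (a median of 20% to 80% over the 6 libraries) 96.9% were below. The DMR's share is thus near the share of cytosines of its level. The cytosine that was not called, 174123686, read 46.7% in control and 29.2% for Dnmt1. The largest difference was at 174126058 on the minus strand, 80% in control and 13.6% for Dnmt1. Intermediate autosomal cytosines outside the domain went from 64.0% to 10.7%, 16.7% of the control level. In the exon 1A DMR 5 of 21 cytosines, and in the rest of the domain 1 of 33, were called lower.

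The next comparisons concern the de novo enzymes. In the Nespas-Gnasxl DMR the mean difference of the Dnmt3a knockdown from control was -2.51 ± 7.85 points (SD over 14 ends), with 35 cytosines lower and 20 higher. Ends went both ways: of 18, 13 were lower and 5 higher, from -20.4 points at 174125190 to 174125204 (48.9% in control, 28.4% for Dnmt3a) to 13.4 points at the left-edge end described above. Of 72 cytosines compared, 3 were called lower and 1 higher. Of the 55 listed in all 6 libraries, 1 was called lower and 0 higher. Over all autosomal cytosines 7.99% were called lower and 0.293% higher, and over intermediate ones listed in all 6 libraries 31.6% were called lower. The largest single fall was at 174125514 (63.6% to 42.2%) and the largest gain at 174125948 (50% to 75%), both on the minus strand. On the plus strand alone the mean difference was 0.0032 points and on the minus strand it was -5.76 points. Over the 48 cytosines outside the chosen cluster the mean difference was -3.19 points.

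Set beside other sequence of like level, the DMR differed less from control in this library. The 2951 intermediate autosomal clusters outside the domain, groups of at least 5 cytosines at most 100 bp apart, had a median Dnmt3a difference of -15.3 points, with 5% of them above -4.34 points. The DMR's mean of -2.51 points was above 97.1% of them. That mean runs over 55 cytosines, while a cluster may hold as few as 5. Taken singly, the DMR's 5 clusters lay above 96.0%, 99.8%, 89.1%, 87.7% and 99.7% of them, from left to right. The 784 clusters whose mean over the 5 libraries other than Dnmt1 was 40% to 60%, a class chosen after the data were seen, had a median of -18.8 points and their upper 5% began at -5.87 points. The DMR's own 5 clusters differed by -3.36, 5.64, -7.11, -7.75 and 2.16 points, from left to right, so that 3 of 5 lay above that -5.87 points. Without replicates it was not tested whether the DMR's distance from other clusters exceeds the error of a library.

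**Figure D3:**
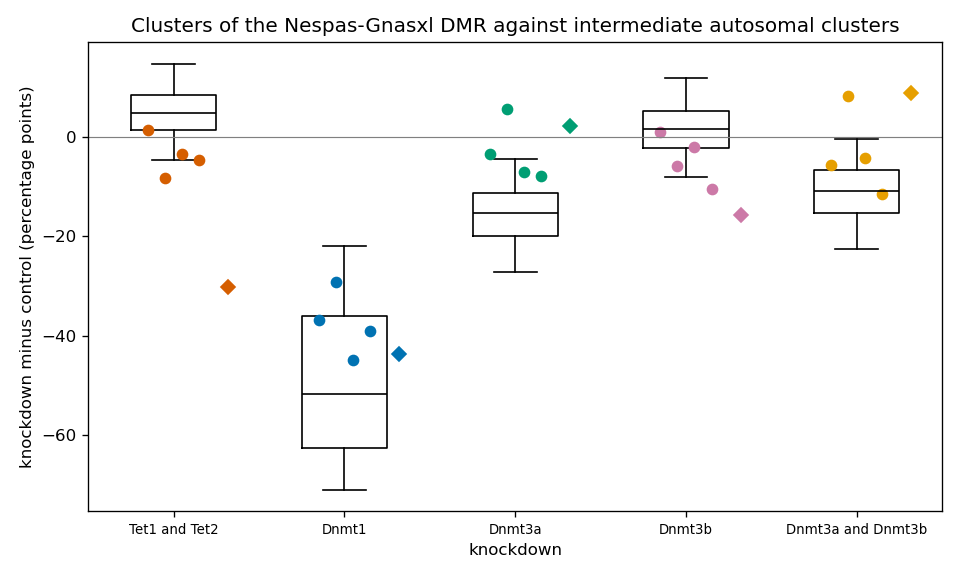
Difference from control (percentage points) in each knockdown. Boxes are the 2951 intermediate autosomal clusters outside the domain (median, quartiles, whiskers at the 5th and 95th percentiles), circles the other 4 clusters of the Nespas-Gnasxl DMR and diamonds the chosen cluster. For Dnmt3a all 5 marks lie above the box median of -15.3 points; for Dnmt1 they lie between -44.9 and -29.2 points.

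The Dnmt3b knockdown was lower than control in the DMR, by a mean of -6.80 ± 7.70 points (SD over 14 ends), with 40 cytosines lower, 14 higher and 1 equal. Of 71 cytosines compared, 5 were called lower and 0 higher, against 1.22% lower and 1.74% higher over all autosomal cytosines. Of the DMR's 55 cytosines listed in all 6 libraries 2 were called lower, against 2.13% of the intermediate ones so listed. The 5 of the 71 lay at 4 fragment ends across the DMR, with 2 of them on the last minus-strand end. Among them 174126015 (75% in control, 46.2% for Dnmt3b) lay in the chosen cluster, whose control levels entered the choice of the domain. The mean was -7.15 points on the plus and -6.34 points on the minus strand. Over the 48 cytosines outside the chosen cluster it was -5.51 points. Intermediate clusters elsewhere had a median of 1.64 points, and 7.39% of them lay below the DMR's value. For the DMR's clusters taken singly, from left to right, this share was 45.6%, 9.56%, 25.6%, 2.44% and, in the chosen one, 0.610%. The largest single difference was at 174126058, 80% in control and 40% for Dnmt3b, and the largest gain at 174123557, 42.7% and 58.8%.

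The DMR mean of the double knockdown of Dnmt3a and Dnmt3b differed from control by -3.76 ± 8.46 points (SD over 14 ends), with 38 cytosines lower and 17 higher. Of 68 compared, 1 was called lower and 0 higher, against 4.9% lower and 0.421% higher over all autosomal cytosines. Over intermediate ones listed in all 6 libraries 18.6% were called lower and 0.555% higher. The called cytosine of the DMR, 174125514 on the minus strand, read 63.6% in control, 37% in the double knockdown and 42.2% for Dnmt3a. The largest gain was at 174125990 in the chosen cluster, from 46.4% to 64.9%. Over the 48 cytosines outside that cluster the mean difference was -5.62 points. Intermediate clusters elsewhere had a median difference of -10.9 points. The values of the 3 knockdowns of de novo enzymes share the control library, and with Dnmt3b as the reference the Dnmt3a and the double knockdown read 4.29 and 3.03 points higher in the DMR.

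The 5 clusters of the DMR show how these differences spread along it. All 5 were called lower for Dnmt1, against 22.9% of all autosomal clusters and 96.2% of the intermediate ones, so this count is near the share of clusters of like level. For Dnmt3a, Dnmt3b and the double knockdown 0 were called, against 3.36%, 0.0222% and 1.29% of all clusters and 24.7%, 0.169% and 9.4% of the intermediate ones. The first, 174123520 to 174123795 (13 cytosines), read 55.7% in control, 57.2% for Tet1 and Tet2, 56.8% for Dnmt3b, 52.3% for Dnmt3a, 50% in the double knockdown and 19% for Dnmt1. The second is the low end already described. The third, which starts at 174124993 and takes in the dense neighbour (10 cytosines), read 52.7% in control, 50.7% for Dnmt3b, 49.2% for Tet1 and Tet2, 48.4% in the double knockdown, 45.6% for Dnmt3a and 7.77% for Dnmt1. The first and the third thus differed among the 5 libraries other than Dnmt1 by about 7 points each. The fourth, 174125448 to 174125595 (13 cytosines on both strands), had control as its highest library, at 55.4%, with Tet1 and Tet2 at 50.8%, Dnmt3a at 47.6%, Dnmt3b at 44.9%, the double knockdown at 44.0% and Dnmt1 at 16.3%. Of its cytosines 92.3% were lower than control in Dnmt3a, Dnmt3b and the double knockdown each, and the 3 share that control.

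The fifth cluster is the chosen one, with 7 plus-strand cytosines that are all read from 1 fragment end. Its means were 66.4% in the double knockdown, 59.6% for Dnmt3a, 57.4% in control, 41.8% for Dnmt3b, 27.2% for Tet1 and Tet2 and 13.7% for Dnmt1. Control lay inside the range of the libraries and not at its edge. In Tet1 and Tet2 the cytosines read from 16.7% to 33.3% and in control from 46.4% to 75%. These levels led to the choice, and cytosines of 1 end come from the same reads, so nothing is read from their separation. The largest difference was at 174126015, 75% in control and 27.8% for Tet1 and Tet2. It is 1 of 4 clusters lower by at least 20 points in this knockdown among 22524 autosomal clusters, 0.0178%, the value by which it was picked. With the Dnmt3b library as the reference, the Tet1 and Tet2 difference was -14.6 points, that of Dnmt3a 17.8 points and that of the double knockdown 24.6 points.

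The next fragment end to the left is read from the opposite strand and from the adjacent CCGG site. At 174125948 to 174125971 the 4 minus-strand cytosines averaged 45.1% in control, 52.9% for Tet1 and Tet2 and 56.3% for Dnmt3a, and the other libraries did not list them. The Tet1 and Tet2 library was therefore above control 3 bp from where it was far below it on the plus strand. On the right, the 3 minus-strand cytosines at 174126022 to 174126069 read 70% in control, 46.7% for Dnmt3b and 12.1% for Dnmt1, without a level for Tet1 and Tet2. Nearest on the plus strand, the cytosine at 174125829 read 50.5% in control, 47.6% for Tet1 and Tet2, 45.6% in the double knockdown, 44.9% for Dnmt3b and 43.8% for Dnmt3a.

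**Figure D4:**
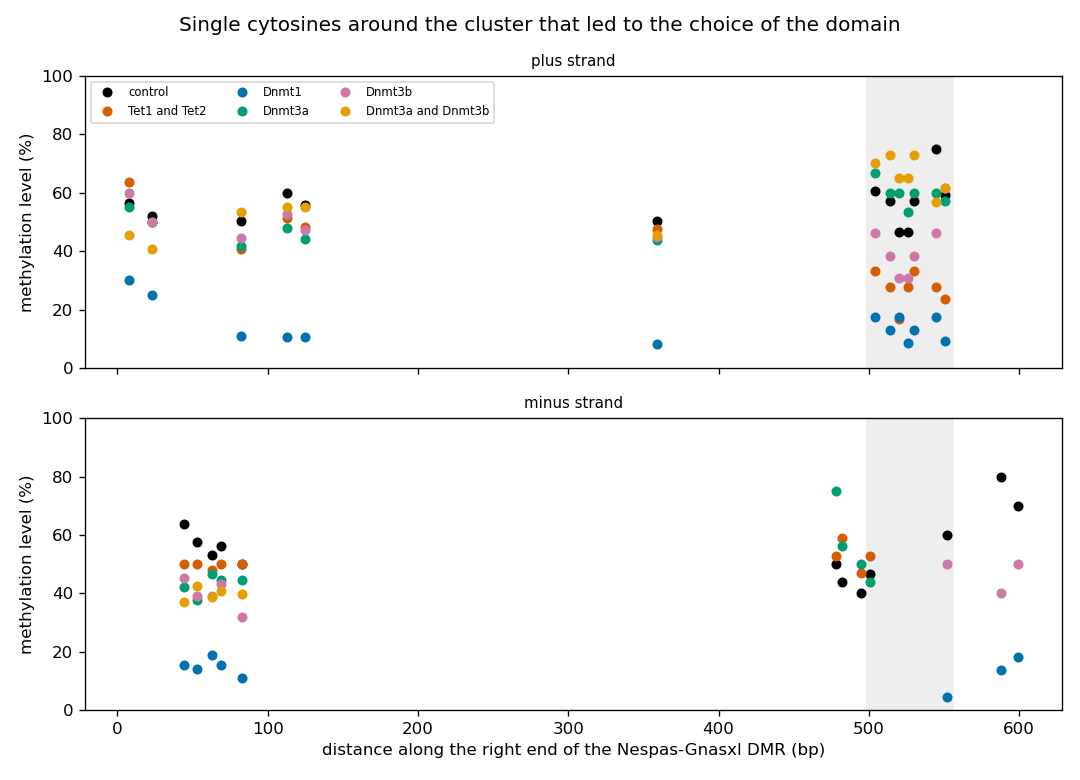
Methylation level (%) of single cytosines at the right end of the Nespas-Gnasxl DMR against distance (bp), by strand; colours are libraries and the shading marks the chosen cluster. On the plus strand Tet1 and Tet2 reads 16.7% to 33.3% inside the shading, and on the minus strand just left of it the same library averages 52.9%.

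Over the whole DMR the knockdown of Tet1 and Tet2, the oxidising enzymes, averaged -7.36 ± 9.28 points against control (SD over 14 ends). Without the chosen cluster the mean over the remaining 48 cytosines was -4.02 points. There were 42 cytosines lower, 12 higher and 1 equal. Of 72 compared 6 were called lower, all of them in the chosen cluster, and 0 higher. Over all autosomal cytosines these shares were 0.889% and 2.58%, and over intermediate ones listed in all 6 libraries 1.5% and 7.23%. Outside the chosen cluster 0 cytosines of the DMR were called in this knockdown. All of this contrast led to the choice of the domain, so nothing is read from the share. Of 18 ends, 16 were lower and 2 higher. The left-edge end at 174120990 differed by -17.0 points. The largest gain of a single cytosine was at 174125952, on the minus strand beside the chosen cluster, from 43.8% to 58.8%. Among shared ends the highest gain, 7.45 points, was at 174123782 to 174123795 (42.1% in control, 49.6% for Tet1 and Tet2). Intermediate clusters outside the domain had a median of 4.90 points in this library.

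The exon 1A DMR, taken as a stretch of 3 kb, held 32 listed cytosines between 174153351 and 174155162, 21 of them in all 6 libraries. Its levels went against the label of a region methylated on a single allele: control averaged 12.6%, and 23 of the 29 cytosines that control listed were below 20%. None exceeded 27.4%. No listed cytosine could be placed in the RefSeq windows of the middle pair of Gnas starts, so the level inside those windows was not read. The leftmost end of the DMR, 174153351 to 174153397, read 6.17% in control. Over the 21 cytosines Tet1 and Tet2 read 15.2% ± 9.2 (SD over cytosines), Dnmt3b 13.5% ± 9.1, Dnmt3a 5.82% ± 5.67, the double knockdown 5.55% ± 6.06 and Dnmt1 0.781% ± 1.21. Dnmt3a and the double knockdown were thus below control and Dnmt3b close to it.

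Within this DMR the ends differed. The most methylated in control was the printed one, at 19.7%, with 21.5% for Dnmt3b, 19.7% for Tet1 and Tet2, 11.3% in the double knockdown, 9.63% for Dnmt3a and 0.343% for Dnmt1. All 7 of its cytosines were lower than control for Dnmt3a and for Dnmt1. At 174154045 to 174154098 control read 16.3%, Tet1 and Tet2 24.3%, Dnmt3b 19.9%, Dnmt3a 9.97%, the double knockdown 8.22% and Dnmt1 2.40%. This end was above the printed one for Tet1 and Tet2, Dnmt3a and Dnmt1. The other 3 ends read 6% to 6.46% in control. On the minus strand at 174154192 to 174154240, next to the printed end, Dnmt3b read 12.5%, Tet1 and Tet2 9.20%, control 6.46%, the double knockdown 5.96% and Dnmt3a 3.95%. The first CpG of the printed end, listed on both strands, read 15% and 11.5% in control, and 6.2% and 4.5% for Dnmt3a.

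Differences from control in the exon 1A DMR were -11.8 ± 6.7 points for Dnmt1 (SD over 4 ends), -7.01 ± 1.68 points in the double knockdown, -6.74 ± 2.64 points for Dnmt3a, 0.986 ± 2.11 points for Dnmt3b and 2.61 ± 5.03 points for Tet1 and Tet2. Over the 5 ends listed outside Dnmt1, Dnmt3a and the double knockdown were lower than control at all 5, Dnmt3b was higher at 4 and lower at 1, and Tet1 and Tet2 higher at 3, lower at 1 and equal at 1. Of 29 cytosines compared, 1 was called lower in each of Dnmt3a, Dnmt3b and the double knockdown, the same cytosine (174153430, 20% in control and 0% in each). Over all autosomal cytosines 7.99%, 1.22% and 4.9% were called lower in these knockdowns. A call of that size needs a control level of at least 20%, which 6 cytosines here had. The largest gains were 174153351 for Tet1 and Tet2 (3.7% to 21.4%), 174154203 for the double knockdown (4.2% to 23.5%), 174154192 for Dnmt3b (4% to 16.7%) and 174153386 for Dnmt3a (0% to 10%). For Dnmt1 the largest fall was the last CpG of the printed end, from 27.4% to 1.4%, and for Tet1 and Tet2 174153360, from 18.5% to 10.7%. The Dnmt3a level was 46.4% of control and that of the double knockdown 44.2%. In the 1626 autosomal clusters with a mean of 5% to 20% over the 5 libraries other than Dnmt1, a class chosen after the data were seen, these shares were 41.8% and 47.8%. For Dnmt1 the share was 6.22% in the DMR and 20.5% in those clusters. The exon 1A DMR was thus near other sequence of its level in both libraries with the Dnmt3a shRNA.

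Side by side, the DMRs kept different shares of the control level for Dnmt3a: 95.3% in Nespas-Gnasxl and 46.4% in exon 1A. For the double knockdown these were 92.9% and 44.2%, for Dnmt1 25.5% and 6.22%, for Dnmt3b 87.2% and 107.8%, and for Tet1 and Tet2 86.1% and 121%. The Nespas-Gnasxl shares include the chosen cluster, whose levels led to the choice of the domain. Nothing is therefore read from the Tet1 and Tet2 pair. Without that cluster the Tet1 and Tet2 difference there was -4.02 points, against -7.36 points with it. The DMRs differ in starting level, so that the same loss in points is a larger share in exon 1A. In points the Dnmt3a differences were -2.51 and -6.74. No test of the difference between the DMRs was possible with 1 library per group.

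The main Gnas start, which gives the G protein alpha subunit from both alleles in most tissues, was unmethylated in every library that listed it. The 10 cytosines at 174155535 to 174155580, 5 of them placed in the RefSeq window of that start, read 0% for Tet1 and Tet2, Dnmt3a and Dnmt3b, and the other libraries did not list them. The cluster at 174155776 to 174155909 (10 cytosines) averaged 0% in control, Tet1 and Tet2 and the double knockdown, 0.030% for Dnmt1, 0.040% for Dnmt3b and 0.340% for Dnmt3a. The cytosines from 174156121 to 174156363 read 0% throughout. These stretches lie within 2 kb of the exon 1A end and give the level read at unmethylated DNA in the same libraries.

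The few cytosines read far from the promoters and DMRs were highly methylated. The cytosine at 174147578, between the DMRs, read 83.8% in control, 90.7% for Tet1 and Tet2, 88.6% for Dnmt3b, 79.6% for Dnmt3a, 78.9% in the double knockdown and 6.10% for Dnmt1. It was the single called cytosine outside the DMRs. The pair at 174163166 to 174163212 averaged 80.2% in control, 82.8% for Dnmt3b, 82.0% for Tet1 and Tet2, 75.1% for Dnmt3a and 73.3% in the double knockdown. The last cytosine of the window, 174170876, read 90.6% in control, 100% in the double knockdown, 95.2% for Tet1 and Tet2, 94.7% for Dnmt3b and 87.7% for Dnmt3a. Dnmt3a read lower than control at each of these, and single cytosines of unknown depth carry little weight.

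Clusters elsewhere on the autosomes with at least 10 cytosines were ranked by how near their 6 library means came to those of the Nespas-Gnasxl DMR, by the root mean square difference over the 6 libraries. The DMR's means include the chosen cluster, whose levels led to the choice of the domain, so the ranking is a description. Among 9891 clusters the nearest lay on chromosome 11 (22872581 to 22872993, 19 cytosines), at 4.15 points. It read 46.8% in control, 47.3% for Tet1 and Tet2, 9.41% for Dnmt1, 43.9% for Dnmt3a, 45.0% for Dnmt3b and 51.1% in the double knockdown. The next were on chromosome 2 (157385834 to 157386011), at 6.48 points, and chromosome 4 (58623597 to 58623703), at 7.07 points. Their Dnmt3a levels were 39.5% and 49.8% against 52% and 61.1% in control. The listed cytosines within 1 kb of these 3 clusters could be laid on no RefSeq promoter window by the rule used for the domain, so no gene is named for them.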

How the data were processed

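Per the labels' protocols, DNA of E14 cells was digested by MspI, and TruSeq libraries were bisulfite converted. Named in the submitters' processing notes are Bismark 0.10.1, CASAVA 1.8 and the build mm9. Coverage minimum, trimming and duplicate handling were not stated. The authors deposited methylation fractions (0 to 1, 3 decimals) per cytosine and strand, without counts, and fractions were turned into percent here. Libraries gave a level for 444949 to 604092 cytosines. Depth per level is unknown, so no counting interval can be given, and the planned Fisher's exact tests and coverage minimum were not run. With 1 library per group no test was possible.

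The domain, its DMR bounds and the comparisons were chosen with earlier results of these data known. Positions are 1-based. Means use cytosines listed in all 6 libraries, and calls those listed in control and the knockdown. Clusters join at least 5 cytosines at most 100 bp apart. They are called when their mean differs by 20 points and at least 80% of their cytosines share the sign. The rule was tested on simulated data, in which each cytosine was drawn independently at an assumed depth. That simulation does not cover clusters whose cytosines come from the same reads, nor the unknown depth here. Fragment ends are same-strand runs bounded by CCGG. Items named were all clusters of the domain with a median of at least 20%, the unmethylated ones together, the extreme cytosines per DMR and knockdown, and the 3 nearest profiles; single fragment ends were named after their values were seen. Other imprinted genes on the planned list need positions on mm9 and were not analysed here. Promoter sequences and gene starts are from RefSeq, build GRCm38.p6. Python 3.11.15, pandas 2.3.3, NumPy 2.4.6 and matplotlib 3.10.9 were used.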

Additional observations from a re-analysis of the deposited data

How the results depend on the processing

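A difference counted as unmoved when it stayed within 1 SD over fragment ends of the value reported. Outside Dnmt1 this tolerance is wider than the differences of the Nespas-Gnasxl DMR themselves, so staying within it shows no stability there. For Dnmt1 the DMR's difference ranged from -42.9 to -32.6 points, the latter against the Dnmt3b library. With that library as the reference, Tet1 and Tet2 read -0.564 points, Dnmt3a 4.29 points and the double knockdown 3.03 points. Tet1 and Tet2 read -4.34 points on the minus strand and -4.02 points without the chosen cluster. By medians Dnmt3a read -3.8 points and the double knockdown -7.9 points. In the exon 1A DMR, Tet1 and Tet2 read -2.88 points on the minus strand (4 cytosines) and 0.50 points by medians, Dnmt1 -6.0 points on the minus strand, and the double knockdown -5.21 points over cytosines shared with control or listed in the 5 libraries other than Dnmt1, -4.80 points on the minus strand, -9.90 points by medians and -4.75 points with 500 bp added to each end. In the rest of the domain the double knockdown read 2.29 points above control over each library's own cytosines, a set that differs between libraries. The settings with fragment ends weighing alike, without the chosen cluster, without the Dnmt1 library and with the Dnmt3b reference for clusters were added after the data were seen.

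Counts of calls depended on the size required. At 10 and 30 points they are out of 144 cytosines compared for Tet1 and Tet2, 152 for Dnmt3a, 143 for Dnmt3b and 147 in the double knockdown. Over cytosines listed in all 6 libraries they are out of 101. Shares over all autosomal cytosines and clusters are given only at the main settings. Nothing about the domain is therefore read from the counts that follow. At 10 points the cytosines lower and higher were 20 and 11 for Tet1 and Tet2, 22 and 10 for Dnmt3a, 30 and 7 for Dnmt3b and 25 and 7 in the double knockdown. At 30 points those lower were 2, 0, 2 and 0, and 0 were higher for Dnmt3a. Over cytosines listed in all 6 libraries, 2 were lower and 0 higher for Dnmt3a and 3 lower for Dnmt3b. Clusters of at least 10 cytosines gave 0 called lower for Tet1 and Tet2 and 3 for Dnmt1. The chosen cluster, with 7 cytosines, is too small for that setting. Gaps of at most 300 bp gave 0 and 2. They join the chosen cluster to other cytosines of the DMR on its left, and the joined cluster was not called for Tet1 and Tet2. At 10 points 1 cluster was lower for Dnmt3a, 2 for Dnmt3b and 1 in the double knockdown. A coverage minimum was not run. No paired analysis was possible because each group had 1 library.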
